A study of Rattus norvegicus with 26 samples.

Results

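Chat, Slc18a3, Slc5a7, Ache, Isl1, Mnx1 and Prph were followed as genes of cholinergic motor neurons in RNA-seq libraries of rat spinal cord. They were picked by name, and all 7 were found among the 32883 genes of the joint count table and among the 17990 genes that had enough counts to be tested. Wild type female Sprague-Dawley rats of 250 g were used, and every sample carries the label of postnatal day 70. The cord was clipped at T10 with a force of 60 g for 1 min, and 7 days later either PBS or mesenchymal stem cells of the human umbilical cord (hUC-MSCs) were given by the intrathecal route. Segments of 5 mm centred on the lesion were taken, so each library is a mixture of the cells of that segment. The groups were Intact (comparable segments of rats without the compression, 4 libraries), sub-SCI (injured, taken when the injection would have been made, 3 libraries), and +PBS and +MSC at 1, 2 and 4 wpt (weeks after the transplantation), with 3, 2 and 4 libraries of +PBS and 3, 3 and 4 of +MSC. Cyclosporin A was given daily according to the methods of the study, which do not state it separately for Intact rats.

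Motor neurons of the spinal cord talk to muscle with acetylcholine. Slc5a7, the high-affinity choline transporter, brings choline into the terminal, Chat joins it to an acetyl group, and Slc18a3, the vesicular acetylcholine transporter, loads the product into vesicles. Ache, the acetylcholinesterase, splits acetylcholine after release, and it is made by many neurons and not by cholinergic ones alone. Isl1 and Mnx1 are homeodomain transcription factors that specify motor neurons during development. Prph encodes peripherin, an intermediate filament of neurons with axons in the periphery, which is known to be induced when such axons are damaged. Cholinergic cells of the thoracic cord include the somatic motor neurons, the preganglionic sympathetic neurons and some interneurons.

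The promoter windows of the 3 genes of acetylcholine synthesis, uptake and packaging and of Prph are shown because these genes carried the findings below. Each window is written 5′ to 3′ and runs from 250 bases before to 50 bases after the RefSeq start of the gene in the rat assembly GRCr8, with the GC box (GGGCGG) and the TATA box (TATAAA), searched on both strands, in capitals. Chat lies at chr16:7723367-7723666 (minus strand), Slc18a3 at chr16:7722765-7723064 (minus strand), Slc5a7 at chr9:7953460-7953759 (minus strand) and Prph at chr7:132097039-132097338 (plus strand).
Chat: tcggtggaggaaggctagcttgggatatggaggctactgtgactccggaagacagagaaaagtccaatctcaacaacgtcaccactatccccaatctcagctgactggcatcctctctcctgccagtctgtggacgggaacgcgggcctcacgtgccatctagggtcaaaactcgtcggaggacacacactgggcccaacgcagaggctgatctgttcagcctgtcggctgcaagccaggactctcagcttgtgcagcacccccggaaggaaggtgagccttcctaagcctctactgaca
Slc18a3: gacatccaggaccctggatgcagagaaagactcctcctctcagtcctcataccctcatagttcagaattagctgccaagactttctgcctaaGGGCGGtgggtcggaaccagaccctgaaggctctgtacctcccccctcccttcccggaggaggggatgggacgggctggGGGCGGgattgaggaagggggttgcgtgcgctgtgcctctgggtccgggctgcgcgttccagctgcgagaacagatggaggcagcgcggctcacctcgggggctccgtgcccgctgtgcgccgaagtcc
Slc5a7: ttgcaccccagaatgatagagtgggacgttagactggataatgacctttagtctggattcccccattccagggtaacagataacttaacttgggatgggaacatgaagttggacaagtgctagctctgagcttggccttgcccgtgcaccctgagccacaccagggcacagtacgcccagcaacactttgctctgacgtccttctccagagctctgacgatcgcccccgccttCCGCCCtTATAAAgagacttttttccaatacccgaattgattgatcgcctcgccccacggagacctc
Prph: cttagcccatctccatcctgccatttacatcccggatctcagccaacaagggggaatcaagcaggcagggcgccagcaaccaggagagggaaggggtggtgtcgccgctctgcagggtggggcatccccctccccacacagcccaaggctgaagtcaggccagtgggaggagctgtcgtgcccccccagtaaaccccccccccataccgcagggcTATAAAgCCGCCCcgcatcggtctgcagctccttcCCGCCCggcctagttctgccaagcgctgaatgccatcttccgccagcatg

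Promoter entries were found for 7 of the 7 genes. The Chat and Slc18a3 windows are neighbours on the same strand, and Slc18a3 lies within the span of Chat, so reads could be split between these genes and the counts of the pair are uncertain to that extent. No GC box was found in the Chat window, whereas there were 2 in Slc18a3, 1 in Slc5a7, 2 in Prph and 4 in Ache. The TATA box was found in Slc5a7, 10 bases before the start, in Prph, 35 bases before it, and in Mnx1, 189 bases before it. Of all 33469 promoters of this length, 33.1% held the GC box and 14.2% the TATA box. The E-box (CANNTG) was matched 2 times each in Chat and Slc18a3, 1 time each in Slc5a7, Isl1 and Ache, and 0 times in Mnx1 and Prph, against 72.1% of all promoters with a match. The homeodomain core TAATTA and the cAMP response element TGACGTCA had 0 matches in the 7 windows, and 5.4% and 1.8% of all promoters held them. The windows were rich in G and C, from 53% in Slc5a7 to 75% in Ache, where the median of all promoters was 51.7%.

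Total counts per library lay between 19496602 and 43468509, with a median of 2.6159e+07. Levels are given as CPM, a gene's counts over the library's total after adjustment by TMM, which evens out differences in composition. In Intact cord, the levels per kilobase of transcript were 107 CPM for Prph, 61.0 for Ache, 24.9 for Slc18a3, 20.5 for Slc5a7, 15.0 for Chat, 1.74 for Mnx1 and 0.643 for Isl1. The transcription factors thus rested on few reads, 19 to 49 counts per Intact library for Isl1 and 28 to 55 for Mnx1. All 7 genes were above 1 CPM in every Intact library, so the markers that give the set its name were present. In sub-SCI replicate 3 the 12 pan-neuronal genes summed to 576 CPM, the lowest of the 26 libraries, and in +PBS-4w replicate 1 they summed to 3568 CPM, against 1101 CPM in the lowest library of that group. The labels do not tie the libraries to single animals, so the p-values measure the spread between these samples.

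**Figure D1:**
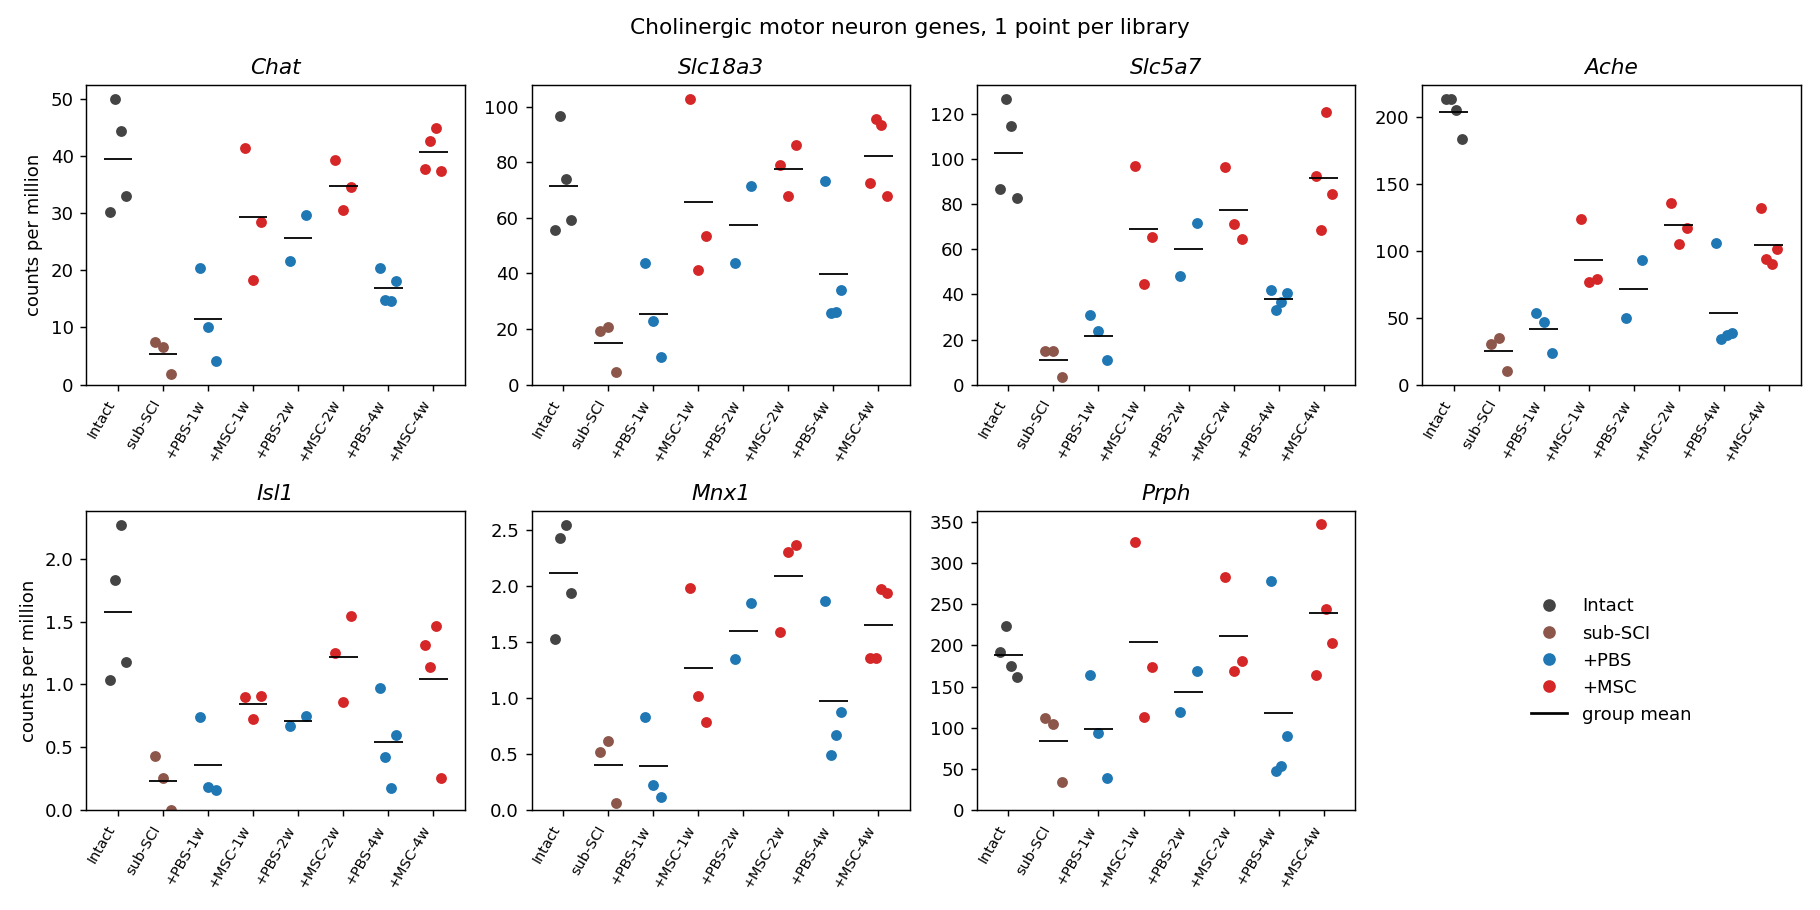
CPM of each gene (vertical axis, linear from 0) in the 26 libraries, with 1 point per library, 8 groups along the horizontal axis and a line at each group mean. Chat lay between 1.90 and 7.53 CPM in sub-SCI and between 30.2 and 50.0 CPM in Intact, and its 4 +MSC-4w libraries, 37.4 to 44.8 CPM, lay above the 4 +PBS-4w libraries, 14.6 to 20.4 CPM.

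The first question was how much of the cholinergic programme was present in the injured cord before any injection. Chat, the enzyme that makes acetylcholine, stood at 30.2, 50.0, 44.4 and 32.9 CPM in the 4 Intact libraries and at 7.53, 6.67 and 1.90 CPM in the 3 sub-SCI libraries. The groups were far apart, with every sub-SCI library below every Intact library. Chat fell by 2.87 on the log2 scale (SE 0.44, adjusted p = 8.81e-06 by edgeR), which is 7.32-fold, and the sub-SCI mean was 13.6% of the Intact mean. In bulk tissue, fewer motor neurons and less RNA per motor neuron cannot be told apart.

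Slc5a7, the choline transporter, was at 86.7, 127, 115 and 82.7 CPM in Intact and at 14.9, 15.0 and 3.53 CPM in sub-SCI. It fell by 3.20 on the log2 scale (SE 0.42, adjusted p = 1.16e-06), the largest change of the 7 genes in this comparison. Slc18a3, the vesicular transporter, was at 55.7, 96.5, 74.2 and 59.1 CPM in Intact and at 19.3, 20.8 and 4.48 CPM in sub-SCI. Its decrease was smaller, 4.80-fold (log2 fold change −2.26, SE 0.51, adjusted p = 0.000593). In all 3 genes the sub-SCI libraries lay below the Intact libraries, and sub-SCI replicate 3 was the lowest library of all 26.

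Ache, which ends the cholinergic signal, had Intact libraries close to each other, at 213, 214, 205 and 184 CPM. Its sub-SCI libraries were at 30.6, 34.6 and 10.2 CPM. The decrease was 8.11-fold (log2 fold change −3.02, SE 0.43, adjusted p = 3.59e-06), so the gene for acetylcholine breakdown fell alongside the genes for its synthesis.

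The transcription factors were low in number of reads. Isl1 had 19, 40, 49 and 31 counts in Intact and 15, 7 and 0 counts in sub-SCI. The count of 0, in sub-SCI replicate 3, allows up to 3 counts, or 0.102 CPM, and this limit covers counting error only. Mnx1 had 28, 53, 55 and 51 counts in Intact and 18, 17 and 2 counts in sub-SCI. Isl1 fell by 2.73 (SE 0.72, adjusted p = 0.00244) and Mnx1 by 2.38 (SE 0.59, adjusted p = 0.00150) on the log2 scale. Without sub-SCI replicate 3 the log2 fold changes were −2.17 and −1.88 and the adjusted p-values 0.0109 and 0.0101, so neither gene passed the threshold of 0.01 without that library.

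Prph was the 1 gene of the 7 that did not pass the test. It was at 192, 224, 176 and 161 CPM in Intact and at 112, 105 and 34.7 CPM in sub-SCI. The sub-SCI libraries were all below the Intact libraries, but 2 of the 3 kept more than 100 CPM. The log2 fold change was −1.17 (SE 0.55, 95% confidence interval −2.31 to −0.02) with an adjusted p of 0.0724.

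A gene was called a differentially expressed gene (DEG) when its absolute log2 fold change was above 1 and its adjusted p under 0.01. Of the 7 genes, 6 were DEGs lower in sub-SCI, where 17.5% of all genes tested were lower by this rule. All 7 had libraries that did not overlap, all in the lower direction, against 34.0% of all genes tested. The median log2 fold change of the 7 genes was −2.73, and that of all genes tested was −0.02.

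The question of what happened without cells was addressed by the +PBS groups, which were each compared with the same 4 Intact libraries. At 1 wpt Chat was at 20.5, 10.1 and 4.12 CPM, all below Intact, and it fell by 1.76 on the log2 scale (SE 0.42, adjusted p = 0.00120). At 2 wpt it was at 21.6 and 29.7 CPM, of which only the latter was close under the lowest Intact library at 30.2 CPM. At 4 wpt it was at 20.4, 14.7, 14.6 and 18.2 CPM, again well below Intact, and it fell by 1.21 (SE 0.37, adjusted p = 0.00881). The Chat means were 29.4%, 65.1% and 43.1% of the Intact mean at 1, 2 and 4 wpt.

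Slc5a7 was at 30.8, 23.7 and 10.8 CPM in +PBS-1w, at 48.3 and 71.8 CPM in +PBS-2w and at 42.0, 33.0, 36.8 and 40.7 CPM in +PBS-4w. All 9 of these libraries lay below the Intact libraries. The log2 fold changes were −2.24 (SE 0.40, adjusted p = 7.96e-05), −0.77 (SE 0.43, adjusted p = 0.169) and −1.43 (SE 0.35, adjusted p = 0.00168).

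Ache was at 53.7, 46.5 and 23.7 CPM in +PBS-1w, at 49.9 and 92.9 CPM in +PBS-2w and at 106, 34.0, 36.9 and 38.3 CPM in +PBS-4w. None of them reached the lowest Intact library. The log2 fold changes were −2.30 (SE 0.42, adjusted p = 9.07e-05), −1.51 (SE 0.47, adjusted p = 0.0151) and −1.92 (SE 0.37, adjusted p = 0.000180). At 4 wpt a single library, replicate 1, stood apart from the other 3 of its group, in Ache and also in Slc18a3, Prph and Mnx1. It was the highest of its group for Isl1, Slc5a7 and Chat as well.

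Slc18a3 was at 43.6, 22.9 and 9.81 CPM in +PBS-1w, at 43.8 and 71.5 CPM in +PBS-2w and at 73.1, 25.9, 26.2 and 34.0 CPM in +PBS-4w. Only the +PBS-1w libraries were separate from Intact. Its log2 fold change at 1 wpt was −1.48 (SE 0.49, adjusted p = 0.0145), and at 2 and 4 wpt it was −0.31 and −0.84 with adjusted p-values of 0.689 and 0.112. Slc18a3 passed the threshold of 0.01 at 1 wpt without +PBS-1w replicate 1 (−2.12, adjusted p = 0.00338), sub-SCI replicate 3 (−1.48, adjusted p = 0.00564) or +PBS-4w replicate 1 (−1.41, adjusted p = 0.00970). At 4 wpt it was at −1.26 (adjusted p = 0.0188) without +PBS-4w replicate 1. Prph spread widely in the +PBS groups, from 39.8 to 164 CPM at 1 wpt, from 119 to 169 CPM at 2 wpt and from 48.2 to 279 CPM at 4 wpt. The Prph groups overlapped Intact in all 3 weeks, and the adjusted p-values were 0.162, 0.657 and 0.266.

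Isl1 had 25, 5 and 4 counts in +PBS-1w, 21 and 24 in +PBS-2w and 26, 12, 4 and 13 in +PBS-4w. Mnx1 had 28, 6 and 3 counts, then 42 and 59, then 50, 14, 15 and 19. Both were low at 1 wpt, where Mnx1 was a DEG (log2 fold change −2.37, SE 0.59, adjusted p = 0.00199) and Isl1 was not (−2.06, SE 0.69, adjusted p = 0.0150). These calls depended on single libraries. Mnx1 was not called without +PBS-1w replicate 2 (−2.09, adjusted p = 0.0139) or replicate 3 (−1.96, adjusted p = 0.0152), and without replicate 1 it was at −3.57 (adjusted p = 0.000288). Isl1 was called without +PBS-1w replicate 1 (−3.15, adjusted p = 0.00403), sub-SCI replicate 3 (−2.06, adjusted p = 0.00506) or +MSC-4w replicate 4 (−2.06, adjusted p = 0.00981). At 4 wpt the log2 fold changes were −1.53 for Isl1 (adjusted p = 0.0394) and −1.11 for Mnx1 (adjusted p = 0.0692).

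By count, 4 of the 7 genes were DEGs lower in +PBS-1w (Chat, Slc5a7, Mnx1 and Ache), where 12.5% of all genes tested were, and 3 were lower in +PBS-4w (Chat, Slc5a7 and Ache), where 10.7% were. In +PBS-2w, edgeR called 0 of the 7, against 5.66% of all genes tested. With 2 libraries in that group, 1 gene, Ache, had an unadjusted p under 0.05, where 22.0% of all genes tested did in the lower direction, and DESeq2 on all libraries called 1 gene, where it called 7.99% lower. Ache was called by edgeR at 2 wpt without sub-SCI replicate 3 (−1.51, adjusted p = 0.00617) or +PBS-4w replicate 1 (−1.48, adjusted p = 0.00286). Libraries that did not overlap with Intact were found for 6, 4 and 4 genes at 1, 2 and 4 wpt, and for 30.5%, 31.3% and 21.3% of all genes tested in the lower direction. The Chat call at 4 wpt lay close to the threshold. Its adjusted p was above 0.01 without any library of Intact, +PBS-2w, +MSC-2w, +PBS-4w or +MSC-4w, without +PBS-1w replicate 2 and without +MSC-1w replicate 3, the highest being 0.0355 without Intact replicate 2. Without +PBS-4w replicate 1, Prph was called at 4 wpt (log2 fold change −1.51, adjusted p = 0.00677).

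Between sub-SCI and 4 wpt, Chat and Slc5a7 rose even without cells. Chat was 3.16-fold higher in +PBS-4w than in sub-SCI (log2 fold change 1.66, SE 0.42, adjusted p = 0.00644) and Slc5a7 was 3.42-fold higher (1.77, SE 0.39, adjusted p = 0.00244), and they were the 2 DEGs of the 7 genes, where 4.28% of all genes tested were higher. Without sub-SCI replicate 3 there were 0 DEGs among the 7 in this comparison, and 1 without sub-SCI replicate 2, +PBS-4w replicate 1 or +PBS-4w replicate 4. In +MSC-4w against the same sub-SCI libraries, 5 of the 7 were DEGs (Chat, Slc18a3, Slc5a7, Mnx1 and Ache; background 10.2%). Chat was 7.56-fold higher (log2 fold change 2.92, SE 0.44, adjusted p = 3.07e-05) and Slc5a7 8.19-fold higher (3.03, SE 0.42, adjusted p = 1.15e-05).

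**Figure D2:**
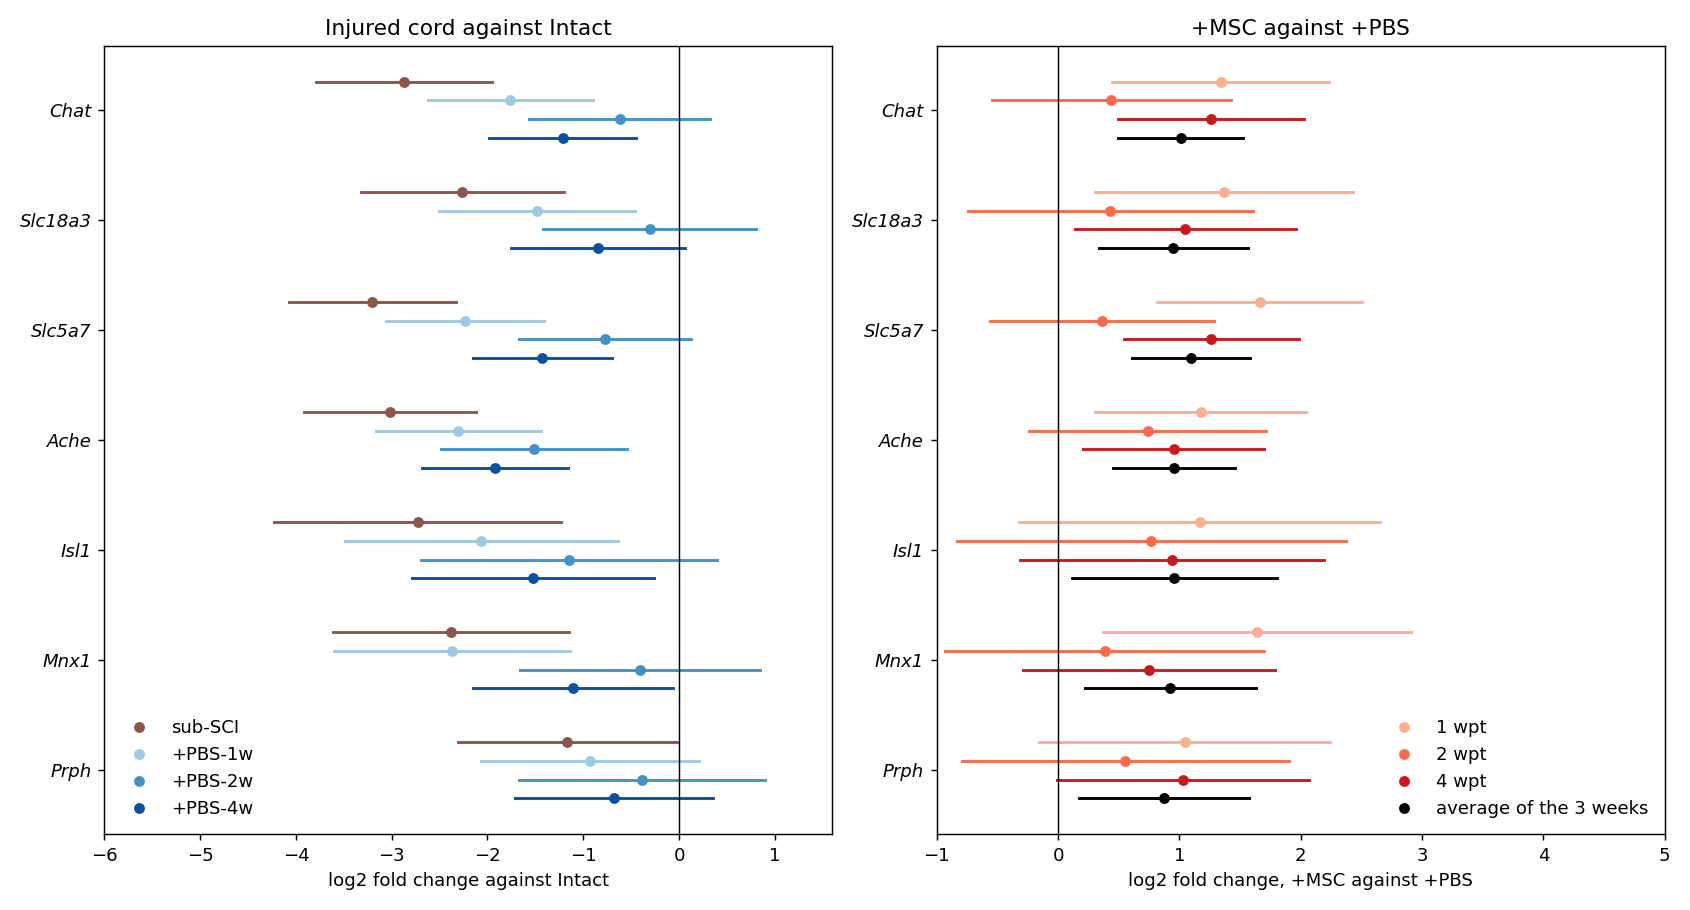
Log2 fold changes (points) with their 95% confidence intervals (lines) for the 7 genes, in sub-SCI and the +PBS groups against Intact on the left and in +MSC against +PBS on the right. The values on the left run from −3.20 to −0.31 and those on the right from 0.37 to 1.66, and in both panels the values at 2 wpt lie nearest to 0 for most genes.

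The comparison that the study was built for was +MSC against +PBS at the same week. Chat was at 41.3, 18.3 and 28.5 CPM in +MSC-1w, at 39.3, 30.6 and 34.5 CPM in +MSC-2w and at 37.7, 42.7, 44.8 and 37.4 CPM in +MSC-4w. The groups overlapped at 1 wpt, where the highest +PBS library was at 20.5 CPM, and did not at 2 and 4 wpt. The fold changes were 2.53-fold at 1 wpt (log2 1.34, SE 0.43, adjusted p = 0.130), 1.36-fold at 2 wpt (log2 0.44, SE 0.47, adjusted p = 0.752) and 2.39-fold at 4 wpt (log2 1.26, SE 0.37, adjusted p = 0.0570). The value of Chat at 1 wpt moved with single libraries, to 2.04 on the log2 scale without +PBS-1w replicate 1 (adjusted p = 0.0747) and to 0.94 without +PBS-1w replicate 3 (adjusted p = 0.421).

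Slc5a7 was at 96.8, 44.6 and 65.2 CPM in +MSC-1w, at 96.5, 71.0 and 64.7 CPM in +MSC-2w and at 92.4, 68.3, 121 and 84.5 CPM in +MSC-4w. At 1 and 4 wpt every +MSC library was above every +PBS library, and at 2 wpt the groups overlapped. The log2 fold changes were 1.66 (SE 0.41, adjusted p = 0.0741), 0.37 (SE 0.44, adjusted p = 0.790) and 1.26 (SE 0.35, adjusted p = 0.0426), and the last was the smallest adjusted p of the 7 genes in the single weeks. Without sub-SCI replicate 3, which is in neither group but enters the shared estimate of the spread, Slc5a7 passed the threshold at 4 wpt (1.26, adjusted p = 0.00945).

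Ache was at 124, 77.0 and 79.1 CPM in +MSC-1w, at 136, 105 and 117 CPM in +MSC-2w and at 132, 93.9, 90.4 and 101 CPM in +MSC-4w. It was above all +PBS libraries at 1 and 2 wpt, and at 4 wpt it was above 3 of the 4. Its log2 fold change at 4 wpt was 0.95 (SE 0.36, adjusted p = 0.122), and without +PBS-4w replicate 1 it was 1.49 with an adjusted p of 0.00524. Slc18a3 was at 103, 41.2 and 53.4 CPM in +MSC-1w, at 79.1, 67.7 and 86.1 CPM in +MSC-2w and at 72.7, 95.6, 93.6 and 67.7 CPM in +MSC-4w, and it overlapped +PBS at each week. At 4 wpt Slc18a3 was higher by 1.50 on the log2 scale (adjusted p = 0.0273) without +PBS-4w replicate 1, and at 1 wpt by 2.01 (adjusted p = 0.122) without +PBS-1w replicate 1.

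Prph was at 326, 113 and 174 CPM in +MSC-1w, at 284, 169 and 181 CPM in +MSC-2w and at 164, 348, 244 and 203 CPM in +MSC-4w. The highest level among all 26 libraries, 348 CPM, was that of +MSC-4w replicate 2. The log2 fold changes against +PBS were 1.04, 0.55 and 1.03 with adjusted p-values of 0.353, 0.779 and 0.227. At 4 wpt, leaving out +PBS-4w replicate 1, the library with 279 CPM, gave 1.88 with an adjusted p of 0.00963.

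Isl1 had 30, 20 and 23 counts in +MSC-1w, 30, 21 and 30 in +MSC-2w and 33, 52, 41 and 6 in +MSC-4w. Mnx1 had 66, 28 and 20 counts, then 38, 56 and 46, then 34, 62, 55 and 45. Their log2 fold changes against +PBS ran from 0.38 to 1.64, with adjusted p-values of 0.175 or more. Without +PBS-1w replicate 1 the values at 1 wpt were 2.25 for Isl1 (adjusted p = 0.213) and 2.85 for Mnx1 (adjusted p = 0.106). The low count of Isl1 in +MSC-4w replicate 4 was not shared by Mnx1 or Chat in that library.

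Counted together, edgeR called 0 of the 7 genes at each single week, where 0%, 0% and 0.495% of all genes tested were DEGs higher in +MSC at 1, 2 and 4 wpt. The numbers with an unadjusted p under 0.05 were 5, 0 and 4, against 10.6%, 5.49% and 11.2% of all genes tested in the higher direction. DESeq2 on all libraries called 1, 0 and 1, which was Slc5a7 in both cases, and it called 0.190%, 0.0152% and 1.75% of the genes that it tested higher. All 7 log2 fold changes were positive in each week, where 49.7%, 50.2% and 45.5% of all genes tested were, with medians of 1.34, 0.44 and 1.03 in the 3 weeks, while the median of all genes tested at 4 wpt was −0.04. Libraries did not overlap for 2, 4 and 2 of the genes, against 15.3%, 18.6% and 6.08% of all genes tested in the higher direction. The difference between the 4 wpt and the 1 wpt effect was tested as well, and edgeR called 0 of the 7 genes, as it did 0% of all genes tested in either direction (log2 differences −0.89 to −0.02, all adjusted p = 0.999, 0 with an unadjusted p under 0.05).

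Averaged over the 3 weeks, Chat was 2.02-fold higher in +MSC (log2 1.01, SE 0.25, 95% confidence interval 0.50 to 1.53, adjusted p = 0.00682) and Slc5a7 2.14-fold higher (log2 1.10, SE 0.23, 0.61 to 1.58, adjusted p = 0.00305). These were the 2 DEGs of the 7 genes, where 1.61% of all genes tested were higher. Ache (0.96, SE 0.24, adjusted p = 0.00832) and Slc18a3 (0.95, SE 0.30, adjusted p = 0.0248) passed an adjusted p of 0.05 with log2 fold changes under 1, so 4 genes passed that limit, against 12.3% of all genes tested. Mnx1 (0.92, adjusted p = 0.0526), Prph (0.88, adjusted p = 0.0636) and Isl1 (0.96, adjusted p = 0.0921) did not. The values of Chat and Slc5a7 sat just past the fold threshold, and the number of DEGs was 0 without +PBS-1w replicate 3, +MSC-1w replicate 1 or +PBS-2w replicate 1, and 5 without +PBS-1w replicate 1 or +PBS-4w replicate 1. It was 1 without Intact replicate 1 or 2, +PBS-1w replicate 2, +MSC-1w replicate 3, +MSC-2w replicate 1 or 3, +PBS-4w replicate 2 or 3, or +MSC-4w replicate 1, 3 or 4.

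How far the +MSC cords stood from Intact differed between the genes. The Chat means of +MSC were 74.6%, 88.3% and 103% of the Intact mean at 1, 2 and 4 wpt, and the log2 difference from Intact at 4 wpt was 0.05 (95% confidence interval −0.71 to 0.80, adjusted p = 0.940). For Prph the means were 108%, 112% and 127% of Intact, with adjusted p-values of 0.626 or more. For Ache they were 45.7%, 58.4% and 51.1%, and no +MSC library reached the lowest Intact library. The log2 fold changes of Ache against Intact were −1.13 (SE 0.40, adjusted p = 0.0327), −0.77 (SE 0.39, adjusted p = 0.174) and −0.97 (SE 0.36, adjusted p = 0.0441).

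None of the 7 genes was a DEG between +MSC and Intact by edgeR, where 2.63%, 0.461% and 1.53% of all genes tested were lower. Without +PBS-4w replicate 1, which is in neither group, 1 was called at 1 wpt. The numbers with an unadjusted p under 0.05 were 1, 0 and 1, Ache in both cases, where 20.8% and 19.5% of all genes tested were lower by this limit at 1 and 4 wpt. The libraries did not overlap for Isl1 and Ache at 1 wpt and for Ache at 2 and 4 wpt (25.5%, 21.3% and 20.4% of all genes tested, lower). The absence of a call does not show that the levels were equal, since the interval of Chat at 4 wpt still holds changes of up to 0.80 on the log2 scale. These comparisons use the same Intact libraries as the +PBS comparisons.

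Put in order of their means, neighbouring groups mostly could not be separated. For Chat the order from high to low was +MSC-4w, Intact, +MSC-2w, +MSC-1w, +PBS-2w, +PBS-4w, +PBS-1w and sub-SCI, and 6 of the 7 neighbouring pairs had overlapping libraries, the exception being +PBS-2w above +PBS-4w. For Slc5a7 the order began with Intact, and 5 of the 7 pairs overlapped. For Ache Intact stood first and apart from +MSC-2w, and the other 6 pairs overlapped. All 7 neighbouring pairs overlapped for Slc18a3, Isl1, Mnx1 and Prph.

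Neurons of other kinds changed with these groups too, so the 7 genes were next compared with a pan-neuronal measure. The mean log2 CPM of 12 pan-neuronal genes (among them Rbfox3, Syt1, Map2 and Syn1) was 7.87 in Intact, 5.33 in sub-SCI, 5.90, 6.42 and 5.90 in +PBS and 6.90, 7.19 and 7.05 in +MSC at 1, 2 and 4 wpt. Each library was rescaled so that this mean was equal in all 26, and the test was repeated with an adjusted p under 0.05 as the limit. The question is then which of the 7 genes changed by more or by less than neurons in general did. The rescaling is taken as known, and its own error is not in the p-values.

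In sub-SCI, relative to the neuronal genes, Prph was higher than in Intact by 1.20 on the log2 scale (SE 0.35, 95% confidence interval 0.49 to 1.91, adjusted p = 0.00242). On this scale 85.5% of all genes tested were higher, so the direction of Prph is that of most genes, including those of cells that are not neurons. Slc5a7 fell by 0.90 (SE 0.31, adjusted p = 0.0101) and Ache by 0.66 (SE 0.22, adjusted p = 0.00690) more than the neuronal genes, which 1.56% of all genes tested did. Without sub-SCI replicate 3 Slc5a7 was at −0.70 (adjusted p = 0.0535) and did not pass. Chat was at −0.55 (SE 0.33, adjusted p = 0.123), and Slc18a3, Isl1 and Mnx1 lay between −0.52 and 0.02 with adjusted p-values of 0.455 or more. When the scaling was set by Snap25, Syt1, Syn1 and Syp alone, Prph passed (1.71, adjusted p = 0.000246), and Slc5a7 (−0.40, adjusted p = 0.288) and Ache (−0.16, adjusted p = 0.521) did not.

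In the +PBS cords, averaged over the 3 weeks, Prph (0.96, SE 0.29, adjusted p = 0.00372) and Slc18a3 (0.78, SE 0.27, adjusted p = 0.0103) were higher than in Intact relative to the neuronal genes, as were 85.3% of all genes tested. In the +MSC cords the same 2 genes were higher (Prph 1.01, SE 0.29, adjusted p = 0.00833, and Slc18a3 0.87, SE 0.27, adjusted p = 0.0128), where 48.0% of all genes tested were. This last comparison was added after the data were seen. In both of these comparisons the number of genes past the limit was 1 without Intact replicate 1, where Slc18a3 did not pass (0.62, adjusted p = 0.0546, in +PBS and 0.72, adjusted p = 0.0683, in +MSC). Chat was at 0.52 (adjusted p = 0.0734) in +PBS and at 0.61 (adjusted p = 0.0553) in +MSC. It stayed short of the limit in 25 of 29 alternative settings in +PBS and in 21 of 29 in +MSC, and passed in the rest. Among these, it passed without sub-SCI replicate 3 in +MSC (0.61, adjusted p = 0.0395). Without +PBS-4w replicate 1 it passed in +PBS (0.58, adjusted p = 0.0346) and in +MSC (0.61, adjusted p = 0.0348). Ache was at −0.23 (adjusted p = 0.205) and −0.15 (adjusted p = 0.429).

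Between +MSC and +PBS, once scaled to the neuronal genes, edgeR called 0 of the 7 genes, and 0 had an unadjusted p under 0.05. The log2 differences were 0.05 to 0.14, with adjusted p-values of 0.487 to 0.818. The interval was −0.32 to 0.51 for Chat and −0.25 to 0.53 for Slc5a7. On this scale 82.1% of all genes tested were lower in +MSC and 0.267% were higher. Without this scaling, the averaged differences of the 7 genes were 0.88 to 1.10, and the median of the 12 pan-neuronal genes was 0.87.

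**Figure D3:**
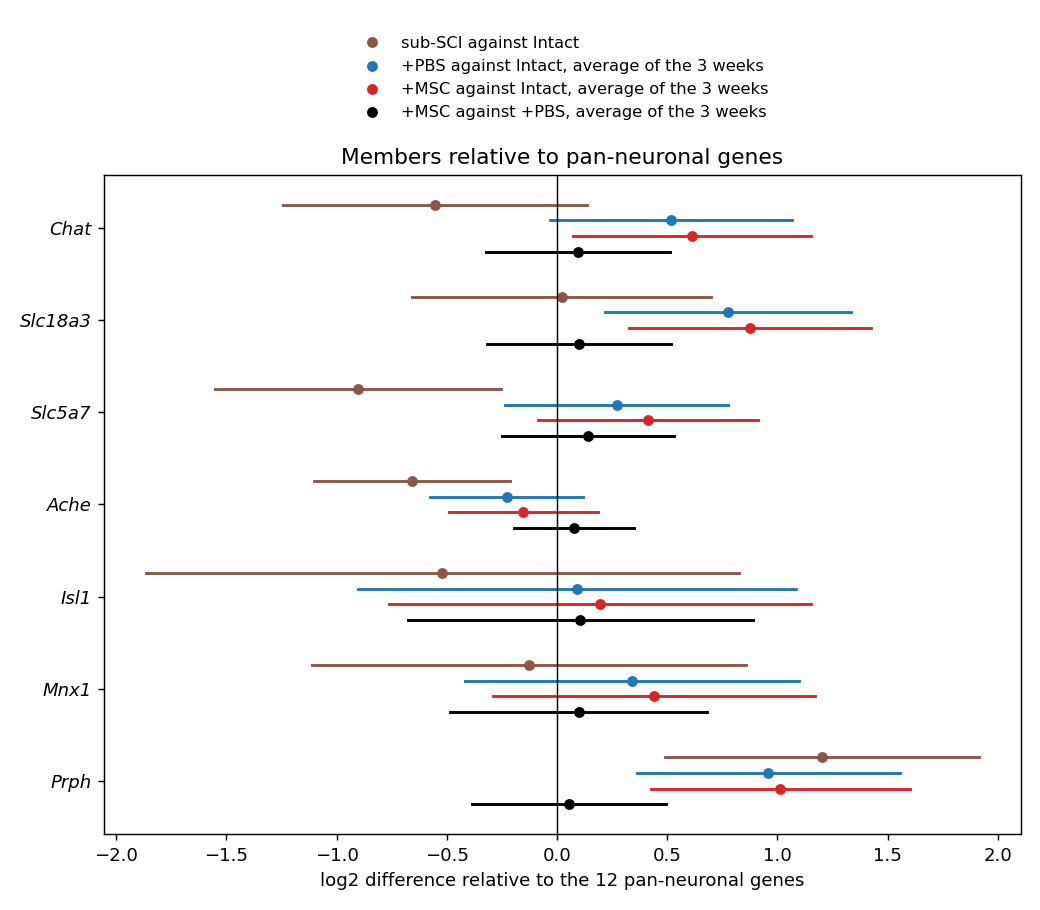
Log2 fold changes of the 7 genes after each library was scaled to the mean of 12 pan-neuronal genes (points, with 95% confidence intervals as lines), for sub-SCI, +PBS and +MSC against Intact and for +MSC against +PBS, the last 3 averaged over the weeks. Prph lies at 1.20, 0.96 and 1.01 in the comparisons with Intact, and the 7 values of +MSC against +PBS lie between 0.05 and 0.14.

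The balance within the cholinergic set was described by the ratio of each gene's CPM to that of Chat in the same library. It was taken from log2 CPM with a prior count of 2, so it differs slightly from the ratio of raw counts. The scaling of the library cancels in it apart from this prior. These ratios carry no test. The median ratio of Prph to Chat was 4.68 in Intact, with a range of 3.95 to 6.35, and 15.6 in sub-SCI, with a range of 14.7 to 17.6. The 3 sub-SCI libraries, sub-SCI replicate 3 included, lay close together and above all Intact libraries. In +PBS-1w the ratio was 7.97 to 9.49, still above Intact, and in +PBS-4w it ran from 3.26 to 13.6, the highest being replicate 1. In +MSC the median ratios were 6.15, 5.51 and 5.43 at 1, 2 and 4 wpt.

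The ratio of Ache to Chat had lower medians in all groups after the injection than in sub-SCI. It was 4.27 to 7.04 in Intact and 4.04 to 5.19 in sub-SCI, which overlapped. In +MSC the medians were 2.99, 3.43 and 2.44 at 1, 2 and 4 wpt, and in +PBS-4w the median was 2.41 with a range of 2.10 to 5.18. All 10 +MSC libraries were below the lowest Intact library in this ratio. So were the +PBS-2w libraries (2.31 to 3.13) and +PBS-4w replicates 2, 3 and 4, while +PBS-1w ran from 2.62 to 5.66. The ratio of Slc18a3 to Chat was 1.67 to 1.93 in Intact and 1.75 to 3.58 in the 22 libraries from injured cords, and the ratio of Slc5a7 to Chat was 2.51 to 2.86 in Intact and 1.51 to 2.69 in injured cords. In sub-SCI the Slc18a3 ratio was 2.31 to 3.10, above all Intact libraries, and the Slc5a7 ratio was 1.83 to 2.24, below all of them. Both shifts were small beside the 4.80-fold and 9.20-fold decreases of the genes themselves in sub-SCI.

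**Figure D4:**
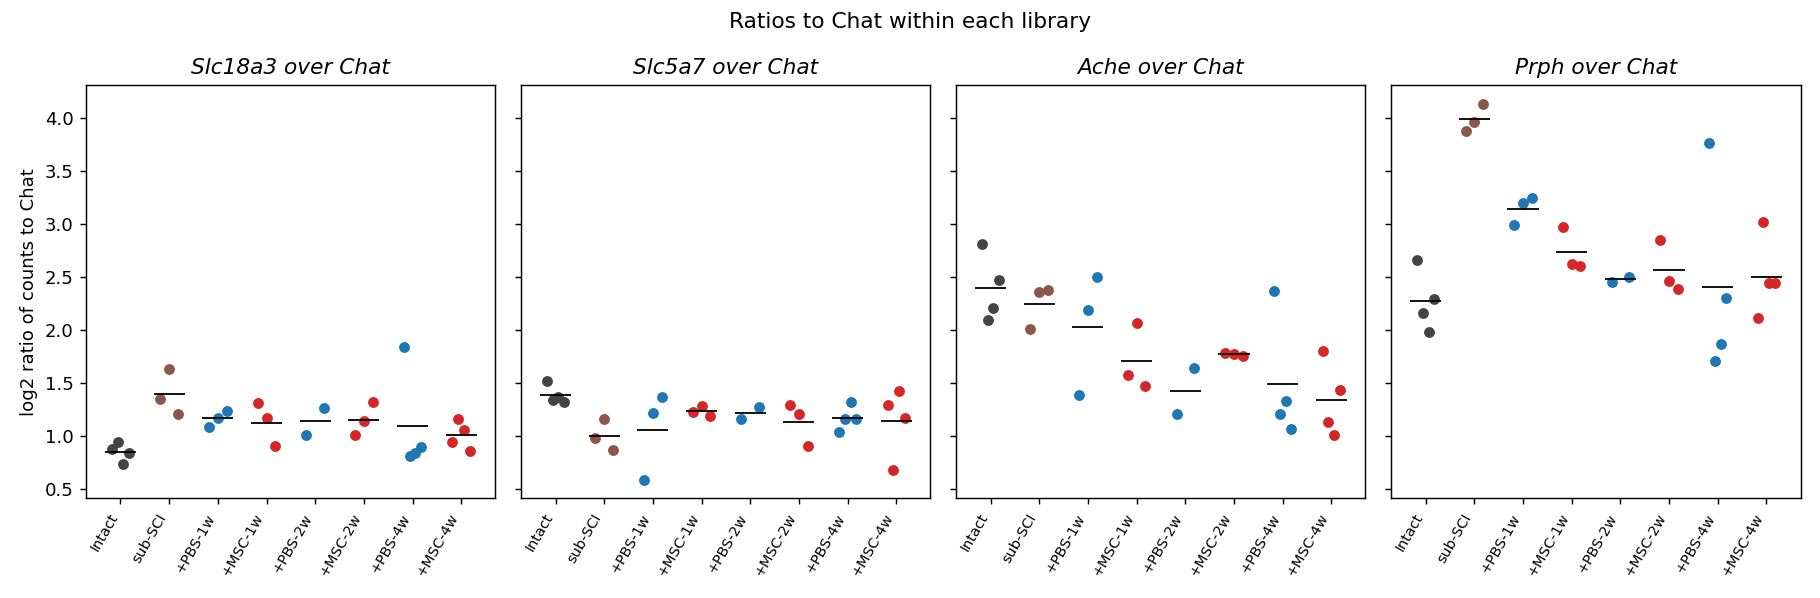
Log2 ratio of the levels (CPM with a prior count of 2) of Slc18a3, Slc5a7, Prph and Ache to those of Chat within each library (vertical axis), with 1 point per library and 8 groups along the horizontal axis. The Prph ratio averages 2.27 ± 0.29 (SD, n = 4) in Intact and 3.99 ± 0.13 (SD, n = 3) in sub-SCI, while the Ache ratio averages 2.40 ± 0.32 (SD, n = 4) in Intact and 1.35 ± 0.35 (SD, n = 4) in +MSC-4w.

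Across the 26 libraries, the genes most like Chat in log2 CPM were Slc5a7 (Pearson r = 0.985), Arhgap36 (0.978), Slc18a3 (0.976), the potassium leak channel Kcnk3 (0.967) and the serotonin receptor Htr2a (0.952). For Slc18a3 the list was Chat, Arhgap36, Kcnk3, the motor neuron marker Chodl (0.964) and the adrenergic receptor Adra1d (0.958), and for Slc5a7 it was Chat, Arhgap36, Kcnk3, the nicotinic receptor chaperone Ric3 (0.963) and Lhx4 (0.956). The nearest to Prph were Tubb3 (0.969), Slc10a4 (0.963), Stmn2 (0.938), Adra1d (0.915) and Hebp2 (0.912), 2 of which, Tubb3 and Stmn2, encode a neuronal tubulin and a tubulin-binding protein and are in the pan-neuronal list. Ache followed the pan-neuronal mean most closely (r = 0.989), ahead of Slc5a7 (0.884), Chat (0.866), Slc18a3 (0.858), Mnx1 (0.842), Isl1 (0.831) and Prph (0.823). These correlations are descriptions, since the 26 libraries share the contrast of intact and injured cord.

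Other genes of cholinergic signalling were taken as lists. Of 10 genes that handle acetylcholine, choline and acetyl groups, 4 were DEGs lower in sub-SCI and 0 higher, where 17.5% and 16.6% of all genes tested were. Their median log2 fold change was −0.60. By adjusted p under 0.05 alone 6 were lower and 3 higher, where 30.9% and 30.5% of all genes tested were. Acly, which supplies cytosolic acetyl-CoA in many cell types, fell from 655 ± 42.1 CPM (SD, n = 4) in Intact to 223 ± 26.8 CPM (SD, n = 3) in sub-SCI (log2 fold change −1.56, adjusted p = 1.05e-08). Prima1, the membrane anchor of acetylcholinesterase, fell by 1.36 (adjusted p = 5.45e-05), and Slc10a4, a vesicle protein of cholinergic and other neurons, by 1.73 (adjusted p = 0.00625). Colq, the collagen tail that anchors acetylcholinesterase at the muscle endplate, was the other DEG (−1.31, adjusted p = 0.00106, named after its value was seen). The choline transporter-like gene Slc44a2 (0.73, adjusted p = 3.14e-05) and the choline kinase Chkb (0.47, adjusted p = 0.000204), which are used well beyond neurons, rose. In +MSC against +PBS averaged over the weeks 0 of the 10 were DEGs by edgeR, where 1.61% of all genes tested were higher and 0.956% lower. By an adjusted p of 0.05, 2 were higher and 1 lower, where 12.3% and 10.9% of all genes tested were, and the median was 0.06. Acly (0.44, adjusted p = 0.00166) and Slc10a4 (0.97, adjusted p = 0.0273) rose and Chkb fell by 0.17 (adjusted p = 0.0470).

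Of 13 nicotinic receptor subunits tested, 7 were DEGs lower in sub-SCI and 0 higher, where 17.5% and 16.6% of all genes tested were, with a median of −2.28. Chrna7, the subunit of homomeric neuronal receptors, fell from 22.8 ± 2.01 CPM (SD, n = 4) to 1.85 ± 0.851 CPM (SD, n = 3), by 3.62 on the log2 scale (adjusted p = 3.25e-09). Chrna4 and Chrnb2, which form the common high-affinity receptor of the brain, fell by 3.31 (adjusted p = 6.05e-07) and 2.57 (adjusted p = 7.61e-07), and Chrna3 by 2.86 (adjusted p = 5.35e-05). In +MSC against +PBS, 3 of the 13 were DEGs higher and 0 lower, where 1.61% and 0.956% of all genes tested were, with a median of 0.76, which were Chrna7 (1.19, adjusted p = 0.000307), Chrna4 (1.11, adjusted p = 0.00259) and Chrna2 (1.22, adjusted p = 0.00690, named after its value was seen). Chrnb2 (0.86, adjusted p = 0.00337) and Chrna3 (0.94, adjusted p = 0.0246) rose by less than the fold threshold. By adjusted p alone, 6 were higher and 1, Chrnb3 (−1.76, adjusted p = 0.0151, named after its value was seen), was lower, where 12.3% and 10.9% of all genes tested were.

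All 5 muscarinic receptors were lower in sub-SCI by an adjusted p under 0.05, as were 30.9% of all genes tested, and 4 were DEGs, as were 17.5%, with a median of −1.92. Chrm2, an inhibitory receptor that motor neurons carry, had the largest decrease, from 25.7 ± 3.23 CPM (SD, n = 4) to 1.50 ± 0.872 CPM (SD, n = 3) (log2 fold change −4.09, adjusted p = 5.31e-08). Chrm3 fell by 2.84 (adjusted p = 3.41e-06), Chrm4 by 1.92 (adjusted p = 0.000798) and Chrm5 by 1.85 (adjusted p = 0.00770). In +MSC against +PBS, Chrm2 was the 1 DEG of the 5, where 1.61% of all genes tested were higher (1.42, adjusted p = 0.000521), and Chrm3 rose by 0.74 (adjusted p = 0.0234), while Chrm4 (0.39, adjusted p = 0.296) and Chrm5 (−0.43, adjusted p = 0.370) did not pass, and the median was 0.39. At 4 wpt Chrm2 averaged 15.6 ± 2.66 CPM (SD, n = 4) in +MSC and 4.29 ± 1.03 CPM (SD, n = 4) in +PBS, both under Intact.

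Of 14 other motor neuron genes, 8 were DEGs lower and 2 higher in sub-SCI, where 17.5% and 16.6% of all genes tested were, with a median of −1.45. Lhx4, a homeodomain factor of motor neuron precursors, fell by 3.71 (adjusted p = 1.32e-06), and the nuclear receptors Esrrb and Esrrg, of which Esrrg marks gamma motor neurons, by 3.74 (adjusted p = 4.45e-07) and 3.68 (adjusted p = 5.49e-07). Ret, a receptor for neurotrophic factors, fell by 1.40 (adjusted p = 0.000151). The DEGs that were higher were Foxp1 (1.47) and Aldh1a2 (1.62), which were named after their values were seen and are also used by other cells, among them those of the meninges for Aldh1a2. In +MSC against +PBS, 2 were DEGs higher, Esrrb (1.09, adjusted p = 0.00402) and Esrrg (1.14, adjusted p = 0.00345), and 1 lower, Aldh1a2 (−1.40), where 1.61% and 0.956% of all genes tested were. The median was 0.72.

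**Figure D5:**
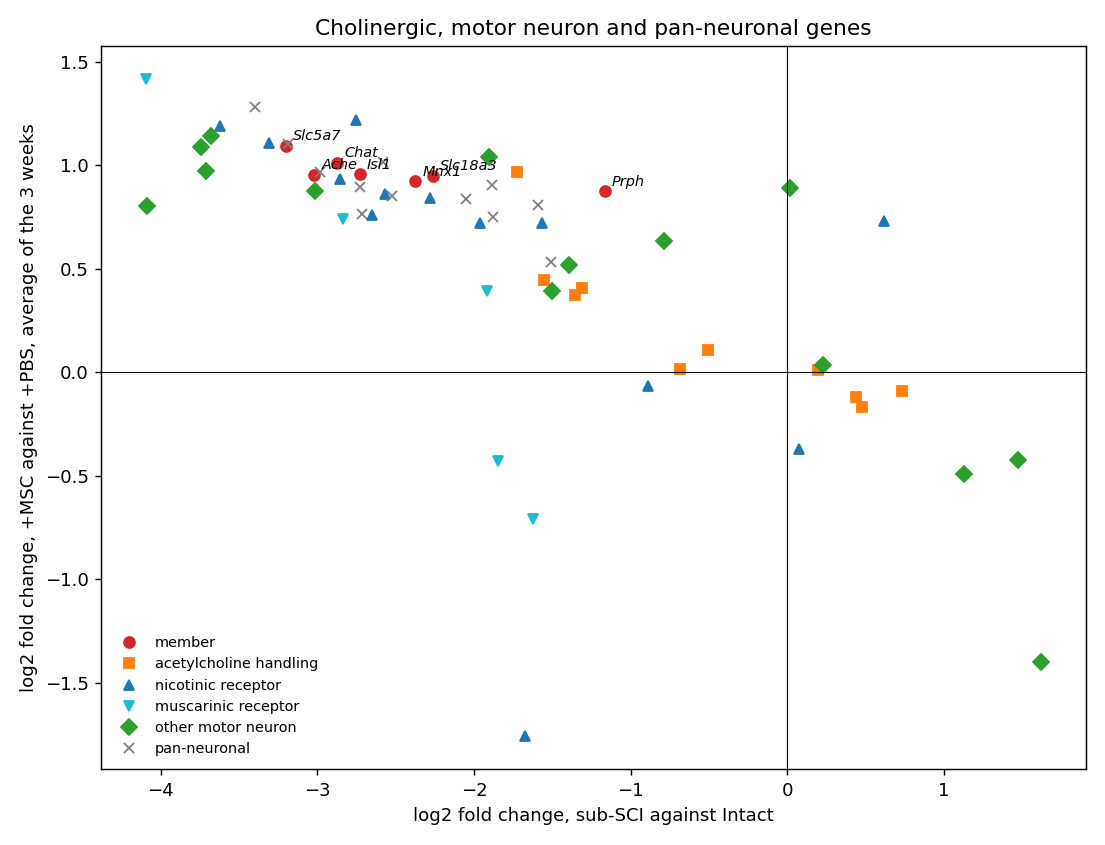
Log2 fold change in sub-SCI against Intact (horizontal axis) and in +MSC against +PBS averaged over the 3 weeks (vertical axis) for the 7 genes and for genes of acetylcholine handling, nicotinic and muscarinic receptors, other motor neuron genes and pan-neuronal genes, 1 point per gene. The 7 genes lie from −3.20 to −1.17 on the horizontal axis and from 0.88 to 1.10 on the vertical axis.

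Genes of neurons at large and of other transmitters were taken as further lists, to be read against 17.5% of all genes tested that were DEGs lower in sub-SCI. The 12 pan-neuronal genes held 11 DEGs lower in sub-SCI (median −2.55), and 10 of the 12 were higher in +MSC by an adjusted p under 0.05 (median 0.87), against 12.3% of all genes tested. All 4 inhibitory transmitter genes were DEGs lower in sub-SCI (median −3.25), Slc6a5, the glycine transporter, by 4.15 (adjusted p = 2.17e-06), and in +MSC it rose by 1.34 (adjusted p = 0.00457). All 3 vesicular glutamate transporters were DEGs lower (median −4.12), and all 4 neurofilament genes were (median −3.25), with Nefl falling by 3.39 (adjusted p = 1.35e-05). Prph, which forms filaments with the neurofilament proteins, had a log2 fold change of −1.17 in the same comparison. In +MSC against +PBS 2 of the 4 inhibitory genes (Gad2 and Slc6a5), 1 of the 3 glutamate transporters (Slc17a6) and 3 of the 4 neurofilament genes (Nefl, Nefm and Ina) were DEGs higher, with medians of 1.12, 0.58 and 1.23, where 1.61% of all genes tested were.

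Markers of other cells that a segment could hold are given because Prph, Isl1 and Ache are not used by spinal motor neurons alone. The 7 sensory ganglion markers summed to 25.5 to 33.3 CPM in Intact, 13.2 to 15.2 in sub-SCI, 16.5 to 24.0 in +PBS-4w and 16.4 to 49.4 in +MSC-4w, Mrgprd being at 0 in 15 of the 26 libraries and Scn11a at 0 in 8. The highest sum was that of +MSC-4w replicate 2, which was also the highest library for Scn10a (6.08 CPM), Scn11a (4.96), P2rx3 (7.58) and Prph, and their part in the Prph level was not tested. Of these markers 6 were tested, with a median log2 fold change of −1.16 in sub-SCI against Intact. Of the 6, 2 were DEGs lower and 0 higher, where 17.5% and 16.6% of all genes tested were. Trpv1 was 1 of these DEGs (−1.24, adjusted p = 1.01e-05), and P2rx3 (−1.07, adjusted p = 0.0188) and Avil (−0.62, adjusted p = 0.217) were not. In +MSC against +PBS averaged over the weeks, all 6 tested had positive log2 fold changes (median 0.69), where 47.6% of all genes tested had. Of these 6, 1 was a DEG higher, where 1.61% of all genes tested were. The log2 fold changes of Trpv1, P2rx3 and Avil were 0.12, 0.38 and 0.02, with adjusted p-values of 0.491, 0.236 and 0.962. These values all lay below the median of 0.69. The other markers tested, the DEG among them, lay above it, and their log2 fold changes are not reported here.

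The 6 Schwann cell markers summed to 73.6 to 1302 CPM in Intact, 1555 to 3373 in +PBS-4w and 295 to 1864 in +MSC-4w. In sub-SCI they summed to 294 to 728 CPM, and their median log2 fold change against Intact was −0.70. Egr2 was the 1 DEG higher in sub-SCI (2.47, adjusted p = 0.00161), where 16.6% of all genes tested were. It was also the 1 gene of the 6 with a positive log2 fold change there. Between +MSC and +PBS edgeR called 0 of 6, with a median of −0.64. The 5 skeletal muscle markers summed to 10.6 to 284 CPM in Intact (median 14.8) and 12.3 to 183 in +PBS-4w. Their sums in sub-SCI, 11.4 to 20.6 CPM, lay within the Intact range. By an adjusted p under 0.05, 4 of the 5 were lower in sub-SCI than in Intact, against 30.9% of all genes tested. The list had 0 DEGs by edgeR in either comparison, with medians of −3.09 and −1.15. Each of the 5 was highest in Intact replicate 4, and the part of that library in the median of −3.09 was not tested. The 4 erythroid markers had 0 DEGs as well, with medians of −0.27 and 0.93. The 8 microglia and macrophage markers summed to 292 to 494 CPM in Intact and 3579 to 4809 CPM in sub-SCI, all 8 were DEGs higher (median 3.74), against 16.6% of all genes tested, and in +MSC against +PBS 4 of them were lower by an adjusted p under 0.05 (median −0.42), against 10.9%. Of 5 oligodendrocyte and 5 astrocyte markers, 4 and 3 (the latter Aqp4, Slc1a2 and Aldh1l1) were DEGs lower in sub-SCI (medians −1.18 and −1.21), against 17.5%, and none was a DEG between +MSC and +PBS by edgeR. The other 2 astrocyte markers, Gfap and Gja1, had positive log2 fold changes in sub-SCI, without an adjusted p under 0.05. The astrocyte markers summed to 6457 to 8112 CPM in Intact and 4755 to 9305 CPM in sub-SCI, which overlapped. The part of this change in cell makeup in the levels of the 7 genes was not tested.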

How the data were processed

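RNA-seq libraries were made from poly(A) RNA of 26 spinal cord segments in 8 groups. The labels gave each sample's group and replicate number. The values are raw counts per Ensembl gene as deposited. According to the submitters' processing notes and the methods, the authors used Trim Galore 0.5.0 for trimming, discarded reads matching human GRCh38 and mapped what was left to rat Rnor6 (both with HISAT2 2.1.0), selected properly paired reads by SAMtools 1.9 and made the counts with featureCounts 1.6.4. The strand setting and the annotation release are not given in the sources used here, so overlapping genes and close copies are uncertain. The methods give another number of +MSC-2w repeats than the labels, which were followed.

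Tests were run by edgeR 4.0.16 in R 4.3.3 (filterByExpr, TMM, glmQLFit and glmQLFTest in 1 model of 8 groups without covariates, 17990 of 32883 genes tested, p-values adjusted by Benjamini-Hochberg over them). 6513 genes had no count. DEGs had an adjusted p under 0.01 and a log2 fold change beyond 1 in either direction. Alternatives used DESeq2 1.42.0, other scaling, other filters, fits of 2 groups, a replicate block and each library left out. Log2 CPM used a prior count of 2. The fits relative to neurons fixed the library scaling by 12 pan-neuronal genes. The scripts were tested on simulated data. No duplicate libraries were found, as the lowest chi-square per degree of freedom between replicates was 5.94 over 31 pairs. Same-numbered libraries deviated together more often than others (a correlation above 0.1 in 31 of 80 pairs, and in 32 of 214 other pairs). By number, this held in 18 of 28 pairs for replicate 1, 5 of 28 for replicate 2, 7 of 21 for replicate 3 and 1 of 3 for replicate 4. The labels do not say what the numbers mean, and whether they mark a shared batch was not tested. The main model did not use them, and fits with them as a block are given below.

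The 7 genes and the lists were chosen with earlier results of these data known. All 7 genes are named with their values. From each list, the 4 genes with the smallest adjusted p in sub-SCI against Intact and the 2 with the smallest in +MSC against +PBS averaged over the weeks were to be named, and those given in the text are among them unless it says otherwise. Of 112 genes in 15 lists, 5 were not matched by symbol and are not analysed here, and some list genes are not reported here. The 5 genes with the highest Pearson correlation were named for Chat, Slc18a3, Slc5a7 and Prph. Promoter sequences are from RefSeq (GRCr8), and no coordinates of that assembly were used with the counts.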

Additional observations from a re-analysis of the deposited data

Results flagged for a closer look

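Ache stood at 106 CPM in +PBS-4w replicate 1, while the other 3 libraries of that group were at 34.0, 36.9 and 38.3 CPM. The gap to the nearest library was 0.941 of the range of the group, past Dixon's 95% critical value for 4 samples. Of 21 groups of 4 libraries tested (7 genes in 3 groups), 1 was past it, and chance flags about 1 in 20. This library was the highest of its group for all 7 genes, among them Slc18a3 (73.1 CPM) and Prph (279 CPM), of which only Ache passed. Mnx1 was at 1.86 CPM there, beside 0.494 to 0.872 CPM in the other 3 libraries. The 12 pan-neuronal genes summed to 3568 CPM in it, also the highest of the group. Chat was at 20.4 CPM there, beside 14.6 to 18.2 CPM in the other 3 libraries. The part of this in the result was not tested.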

How the results depend on the processing

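No called value changed sign in any alternative run. The number of DEGs among the 7 genes stayed within 1.5 times in sub-SCI against Intact under all alternatives, with 4 to 6 when each library was left out in turn. For +PBS against Intact, leave-one-out ranges were 3 to 6, 0 to 1 (1 without sub-SCI replicate 3 or +PBS-4w replicate 1) and 2 to 3 at 1, 2 and 4 wpt. At 1 wpt edgeR on the 2 groups gave 2 and DESeq2 on the 2 groups 6. At 2 wpt, 1 was called by a limit of 0.05 without a fold limit, by DESeq2 on all libraries or on 2 groups, by edgeR on 2 groups and with a term for the libraries numbered 1. At 4 wpt dropping the 8 libraries numbered 1 gave 5. These last 2 settings were chosen after seeing the data.

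For +MSC against +PBS, leaving out each library gave 0 at 1 and 2 wpt, 0 to 2 at 4 wpt (2 without +PBS-4w replicate 1, 1 without sub-SCI replicate 3) and 0 to 5 for the average. DESeq2 on all libraries called 1, on 2 groups 1 at 1 wpt and 1 and 2 at 4 wpt, and a limit of 0.05 called 1 at 4 wpt. For the average, against 2, the limit of 0.05 gave 4, median-of-ratios scaling 1, at least 10 counts in every library 1 (5 genes tested), DESeq2 1, and dropping the libraries numbered 1 gave 0. Over all settings its log2 fold change ran from 0.88 to 1.30 for Chat and from 0.96 to 1.46 for Slc5a7.

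For +MSC-1w against Intact, 0 became 1 by the limit of 0.05, by DESeq2 or edgeR on 2 groups and without +PBS-4w replicate 1 (0 to 1), and for +MSC-4w 1 by the limit of 0.05. For +PBS-4w against sub-SCI, 2 became 4 by the limit of 0.05 and 0 by edgeR on 2 groups, with 0 to 2 when a library was left out. Relative to neurons, scaling by 4 genes gave 1 in place of 3 for sub-SCI, and leave-one-out ranges were 2 to 3 for sub-SCI and 1 to 3 for +PBS and +MSC against Intact. Why these counts moved was not tested.

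With the replicate number as a block, which is not known to pair samples, 1 was called for +PBS-2w against Intact, 1 for +MSC-1w against Intact and 4 for the average of +MSC against +PBS (Chat 1.09, adjusted p = 0.00383, Slc18a3 1.08, adjusted p = 0.00928, Slc5a7 1.14, adjusted p = 0.00229, and Ache 1.05, adjusted p = 0.00194). Other counts moved by no more than 1.5 times under the block.

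Isl1 and Mnx1 had under 10 counts in some libraries, so their values are limited by depth, as are all tests at 2 wpt by the 2 +PBS libraries.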

Other observations

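Values at 4 wpt of 4 genes beside the 7, named here after their values were seen, are given. Chrna7 averaged 22.8 ± 2.01 CPM (SD, n = 4) in Intact, 4.17 ± 0.794 CPM (SD, n = 4) in +PBS-4w and 12.8 ± 1.71 CPM (SD, n = 4) in +MSC-4w, and it was a DEG in +MSC-4w against +PBS-4w (log2 fold change 1.62, SE 0.25, adjusted p = 0.00312), as was Chrm2 (1.87, SE 0.34, adjusted p = 0.00591). Esrrg, a nuclear receptor of gamma motor neurons and of other neurons, averaged 52.4 ± 8.55 CPM in Intact, 12.9 ± 6.69 CPM in +PBS-4w and 25.6 ± 4.75 CPM in +MSC-4w (SD, n = 4 each). Its 4 +MSC-4w libraries lay between 21.3 and 31.5 CPM, below the lowest Intact library at 43.8 CPM. Lhx4 averaged 5.23 ± 0.965 CPM in Intact, 1.16 ± 0.358 CPM in +PBS-4w and 3.23 ± 1.08 CPM in +MSC-4w (SD, n = 4 each), and +MSC-4w exceeded +PBS-4w by 1.47 on the log2 scale (SE 0.40, adjusted p = 0.0393).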
